A study of Mus musculus with 24 samples.

Results

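The voltage-gated sodium channel, voltage-gated calcium channel and HCN channel genes were followed in a mouse data set of trimethylated histone H3 lysine 4 (H3K4m3). The members were chosen by gene symbol, as genes of the deposited table whose symbol begins with Scn, Cacna1, Cacna2d, Cacnb, Cacng or Hcn in the form used for these channel subunits. Described here are 40 of the 27179 genes in the table, and all 40 were among the 25680 genes tested. They fall into 7 subfamilies, which are 9 sodium channel alpha and 3 sodium channel beta subunits, 9 calcium channel alpha1, 4 alpha2delta, 4 beta and 8 gamma subunits, and 3 HCN channels.

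The study prepared chromatin from mouse brain, heart, kidney and liver with an ultrasound-based 96-well workflow and sequenced DNA recovered with an antibody against the histone mark. Each organ is represented by 1 frozen and 1 FFPE (formalin-fixed, paraffin-embedded) library, 8 in all; the labels list 12 samples of this mark, with 2 FFPE samples per organ, and the table does not say whether an FFPE column holds 1 of them or both. The labels give no treatment, allele, strain or age, and the labels do not say whether the libraries came from separate animals. With 1 library per organ and preservation type, no p-value below measures a spread between replicates. Each reflects how unevenly the preservation difference fell across the organs, at the gene and at other genes of similar level. Part of this spread may be technical. Frozen cores were crosslinked after freezing, whereas FFPE cores were fixed before embedding and had the paraffin removed and the chromatin extracted with heat, and the labels name 2 kit families without saying which served which samples; preservation, preparation and kit cannot be told apart. The 12 input libraries were not used here.

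The libraries held between 1792394 (frozen heart) and 5275085 (FFPE kidney) reads counted to genes, and the channel genes took between 0.0822% (frozen liver) and 0.272% (FFPE brain) of them. A member had between 2 and 1084 reads in a library; 29 of 40 had at least 30 reads everywhere, and Cacng3, Cacng4, Cacng6 and Cacng7 fell under 10 in at least 1 library. Defining genes of each labelled organ stood higher in that organ, with 10 of 10 neuron genes called in brain, 5 of 8 cardiomyocyte genes in heart, 4 of 5 kidney tubule genes in kidney and 5 of 5 hepatocyte genes in liver. Ryr2 of the cardiomyocyte list was not called in heart, and was called higher in brain and lower in liver. The 2 liver libraries stood apart from each other: the 5 hepatocyte genes summed to 943 CPM (counts per 1000000 reads of the scaled library) in frozen liver and 258 in FFPE liver. Among the frozen libraries, liver had the lowest value of 29 of the 40 channel genes (72.5%, beside 29.6% of all tested genes).

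As background, these channels turn membrane voltage into ion flow. Sodium channel alpha subunits form the pore that starts the action potential, and the single-pass beta subunits adjust its gating and its place in the membrane. Calcium channel alpha1 subunits form the pore that links depolarisation to transmitter release, contraction or hormone secretion; the alpha2delta and beta subunits bring it to the membrane, and several gamma subunits act as auxiliary proteins of AMPA-type glutamate receptors. HCN channels open on hyperpolarisation and carry the pacemaker current of heart and of many neurons. H3K4m3 is a mark of active or poised promoters, strongest at promoters rich in the dinucleotide CpG. In whole tissue, a smaller share of cells carrying the mark and less of it per cell cannot be told apart.

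A value below is a gene's H3K4m3 level in CPM, obtained by removing the log from the deposited number. The sources used here do not say over which stretch of a gene the reads were counted, so values are compared between libraries within a gene and never between genes. Differences are on the log2 scale with their standard error (SE), from 1 limma model with organ and preservation as terms, and a gene is called when its adjusted p, by the Benjamini-Hochberg method over all 25680 genes, is under 0.05.

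RefSeq promoter windows on GRCm38.p6, each with 250 bases before and 50 after a start site, were found for 31 of the 40 members. Of these, 4 are shown because they carry the results that follow: the member most raised in brain, a brain-raised beta subunit with almost no CpG, the member most lowered in liver, and the member most raised in the FFPE libraries. Capitals mark every CpG, and each window reads 5′ to 3′ on the gene's own strand.
Cacng2, chr15:78119231-78119530, minus strand, 20 CpG: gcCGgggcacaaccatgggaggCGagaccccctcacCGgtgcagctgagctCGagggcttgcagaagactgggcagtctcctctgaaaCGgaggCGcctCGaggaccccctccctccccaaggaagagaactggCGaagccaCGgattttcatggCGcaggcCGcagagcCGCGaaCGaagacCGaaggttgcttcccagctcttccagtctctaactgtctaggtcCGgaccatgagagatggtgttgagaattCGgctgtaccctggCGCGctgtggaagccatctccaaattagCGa
Scn2b, chr9:45117626-45117925, plus strand, 2 CpG: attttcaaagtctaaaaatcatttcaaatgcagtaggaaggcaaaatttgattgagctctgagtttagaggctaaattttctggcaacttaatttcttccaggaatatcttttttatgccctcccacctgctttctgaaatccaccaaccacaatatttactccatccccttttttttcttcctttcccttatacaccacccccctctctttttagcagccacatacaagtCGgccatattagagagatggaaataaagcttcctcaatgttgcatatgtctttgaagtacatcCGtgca
Cacnb2, chr2:14604056-14604355, plus strand, 35 CpG: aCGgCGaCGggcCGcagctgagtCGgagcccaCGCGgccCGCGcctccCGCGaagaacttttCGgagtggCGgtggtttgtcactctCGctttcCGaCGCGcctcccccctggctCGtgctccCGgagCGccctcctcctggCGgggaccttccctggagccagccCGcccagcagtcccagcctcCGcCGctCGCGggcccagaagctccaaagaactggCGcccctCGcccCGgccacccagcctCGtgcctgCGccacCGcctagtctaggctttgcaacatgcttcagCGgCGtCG
Scn4a, chr11:106349341-106349640, minus strand, 4 CpG: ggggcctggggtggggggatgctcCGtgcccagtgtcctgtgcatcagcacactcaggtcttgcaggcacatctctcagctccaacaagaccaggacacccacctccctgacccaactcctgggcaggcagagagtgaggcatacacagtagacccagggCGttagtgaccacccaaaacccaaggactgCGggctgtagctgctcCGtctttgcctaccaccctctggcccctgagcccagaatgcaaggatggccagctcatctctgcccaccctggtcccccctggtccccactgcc
Where a gene has several windows the one richest in CpG is used; Cacnb2 has another, with 4 CpG. The printed 300 bases of Cacnb2 and Cacng2 are studded with CpG, whereas those of Scn2b and Scn4a are nearly bare of it. The Scn4a window lies inside the gene span of 106317545 to 106365559, away from its 5′ end, for which no window was found. Both kinds of promoter occur among the genes raised in brain.

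Brain had the highest H3K4m3 at most of the channel genes. In the comparison of brain with the mean of the other 3 organs, 15 of 40 members (37.5%) were higher and 0 were lower; over all tested genes 5.53% were called higher and 4.53% lower. The median member difference was 0.72, beside -0.01 over all genes, and 37 of 40 members had a difference above 0. Brain was the highest organ for 30 members among the frozen and 30 among the FFPE libraries, and for 25 in both, where 13.0% of all tested genes were highest in brain in both. Both brain libraries lay above all 6 others for 22 members (background 7.56%). Neuron marker genes moved with these members: their summed level was 552 and 653 CPM in the brain libraries and 111 to 236 elsewhere, and none was at 0 reads in any library. Of the astrocyte and oligodendrocyte genes, 2 of 5 each were higher in brain. Among them, Olig1 was also called higher in liver, and another astrocyte gene, Gja1, was called higher in heart. The part of these cells in the result was not tested.

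**Figure D1:**
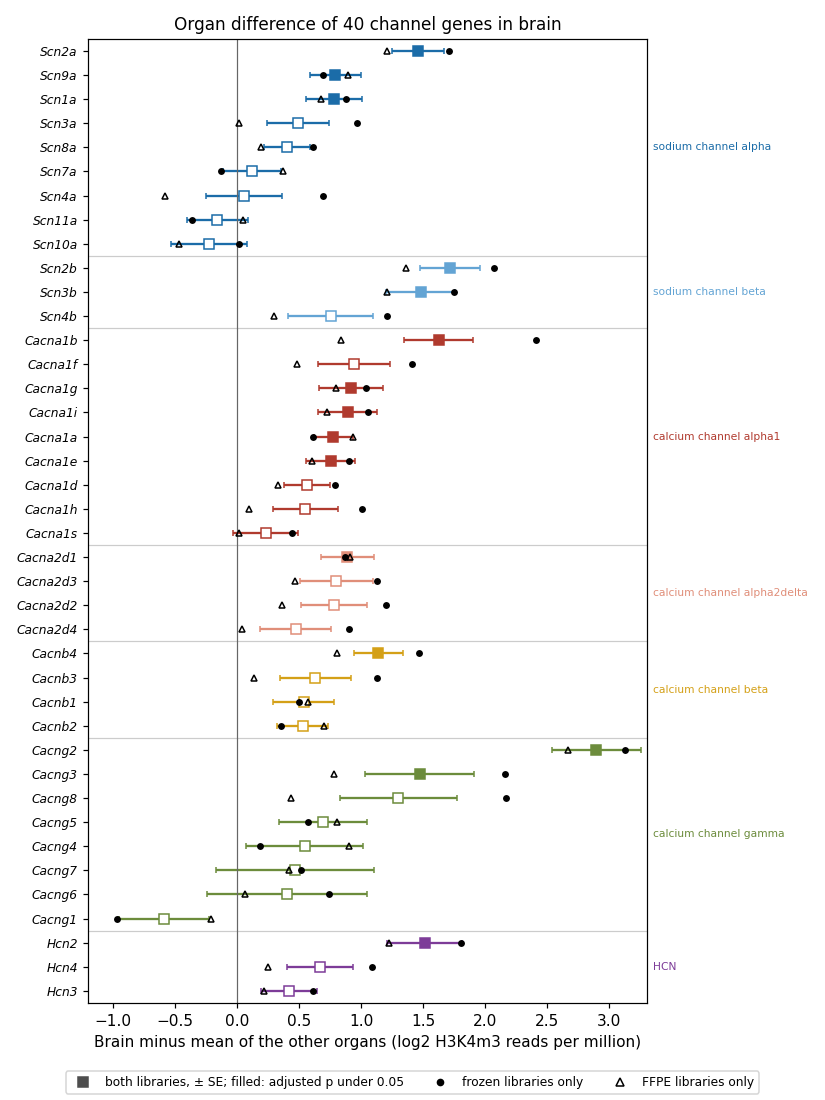
Brain minus the mean of the other organs for the 40 channel genes, in log2 H3K4m3 CPM, by subfamily. Squares are the fitted difference with its SE, filled where the adjusted p is under 0.05; dots use the frozen and triangles the FFPE libraries only. Cacng2 stands farthest to the right at 2.90, and Cacng1 farthest to the left at -0.59.

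Among the calcium channel gamma subunits, Cacng2, which encodes stargazin, an auxiliary protein of AMPA receptors, showed the widest gap of any member. The gene lies on chromosome 15, 77991919 to 78120220 (GRCm38). Brain held 70.9 (frozen) and 66.1 (FFPE) CPM, and the 6 other libraries ranged from 6.87 through a median of 8.87 to 14.6. The groups did not overlap, and the fitted difference was 2.90 ± 0.36, a 7.44-fold higher level (adjusted p = 0.000138, limma). Cacng2 is also the member whose call in brain held in all 6 other settings and with each of the 8 libraries left out. Cacng3, a close relative of stargazin, had 30.1 (frozen) and 13.4 (FFPE) in brain and 5.36 to 11.8 elsewhere, with a median of 6.97. Its call was narrow (1.47 ± 0.44, adjusted p = 0.0477) and rests on few reads: it was lost with plain library totals, without the filter on low values, with precision weights, and without any 1 of 7 libraries, FFPE liver excepted.

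The other 6 gamma subunits did not pass the test in brain. Cacng8, another AMPA receptor auxiliary subunit, had a difference of 1.30 ± 0.47 (adjusted p = 0.11, limma), with 41.4 (frozen) and 22.1 (FFPE) in brain and 4.12 to 20.6 elsewhere. The groups did not overlap for Cacng8, but the frozen libraries gave 2.16 and the FFPE libraries 0.43. Cacng1, the gamma subunit of the skeletal muscle calcium channel, was the member with the lowest brain difference, at -0.59 ± 0.37. Cacng6 had 4.78 (frozen) and 7.30 (FFPE) CPM in brain and 0.981 to 9.34 elsewhere, a spread that covers the brain values.

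Of the HCN channel genes, 1 of 3 was higher in brain. Hcn2, which is widespread in the brain and also present in heart, had 87.9 (frozen) and 63.6 (FFPE) in brain and 17.8 to 48.3 elsewhere, with a median of 26.2. No value overlapped, and it rose by 1.51 ± 0.30 (adjusted p = 0.0045, limma). The highest of the other values was frozen heart. Hcn4, the main pacemaker channel of the sinoatrial node, had 45.1 and 38.0 in brain, just above the 36.9 of FFPE heart, and its difference of 0.67 ± 0.27 did not pass the test (adjusted p = 0.157). Hcn3 also did not pass (0.42 ± 0.23); its span overlaps Pklr, the pyruvate kinase of liver and red cells, and their reads could not be separated.

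Of the sodium channel alpha subunits, 3 of 9 were higher in brain. Scn2a, a main sodium channel of central axons, had 85.0 (frozen) and 110 (FFPE) in brain, and 23.3, 37.0 and 53.6 were the lowest, median and highest values elsewhere. Both brain values lay clear of the rest, at 1.46 ± 0.21 (adjusted p = 0.000468, limma). Scn9a, best known from pain-sensing neurons, rose by 0.79 ± 0.20, and Scn1a, the channel of fast-spiking interneurons, by 0.78 ± 0.23. Both were without overlap between brain and the other libraries, but both calls were lost without FFPE brain, frozen brain, FFPE heart, FFPE kidney or frozen kidney. These 3 genes belong to a run of 5 sodium channel genes on chromosome 2, from 65457118 to 66784910, with Scn3a (0.49 ± 0.25) and the non-canonical Scn7a (0.12 ± 0.23) as the uncalled members. Scn8a, the channel of nodes of Ranvier, had 75.8 and 95.7 in brain and 43.4 to 89.3 elsewhere (0.40 ± 0.19, adjusted p = 0.236).

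3 further sodium channels had no brain call and differences within 1 SE of 0. Scn4a, the skeletal muscle channel, gave 0.05 ± 0.31, at 0.69 in the frozen and -0.58 in the FFPE libraries, Scn10a, a sensory neuron channel, -0.23 ± 0.31, and its relative Scn11a -0.16 ± 0.25. Scn10a and Scn11a lie side by side on chromosome 9, from 119608456 to 119825456, and neither was called in brain.

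Sodium channel beta subunits were called in brain for 2 of 3 genes. Scn2b, which is disulphide-linked to neuronal alpha subunits, had 75.8 (frozen) and 75.9 (FFPE) in brain and 15.6, 25.5 and 29.8 as the lowest, median and highest elsewhere. The 2 brain values were almost equal and far above any other, and the difference was 1.72 ± 0.24 (adjusted p = 0.000406, limma). Scn3b rose by 1.48 ± 0.28, from a median of 22.6 elsewhere to 53.0 and 58.9 in brain. Scn4b had 37.6 and 28.5 in brain and 9.61 to 27.9 elsewhere, without overlap, but did not pass (0.75 ± 0.34, adjusted p = 0.226).

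**Figure D2:**
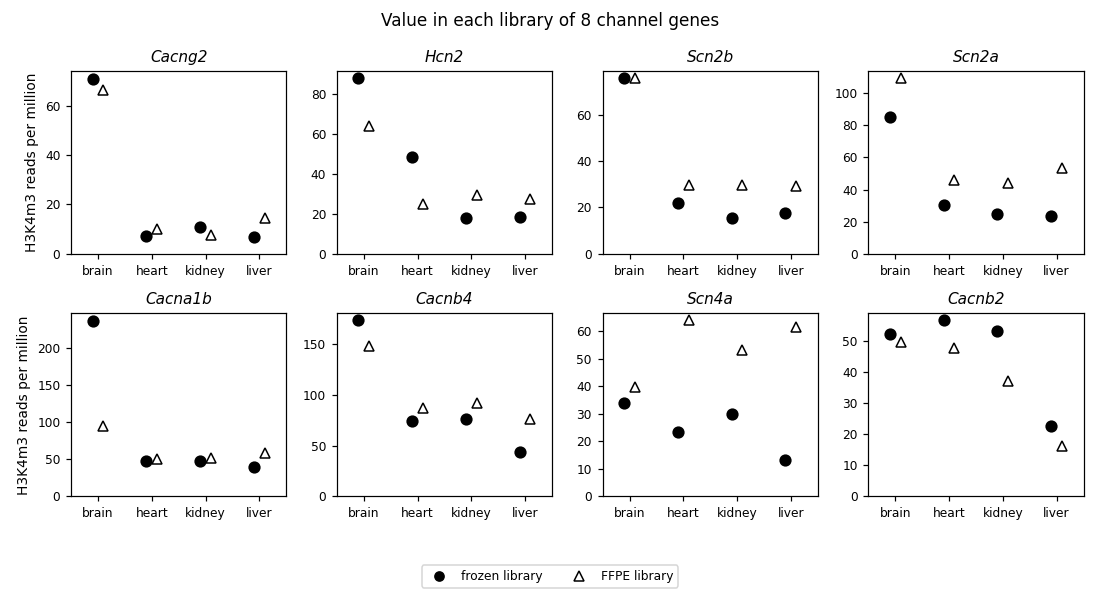
H3K4m3 CPM of 8 channel genes in each of the 8 libraries, by organ; filled circles are frozen and open triangles FFPE libraries. The upper genes and Cacna1b and Cacnb4 are highest in both brain libraries, Scn4a is higher in every FFPE than in every frozen library, and Cacnb2 is lowest in both liver libraries.

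Calcium channel alpha1 subunits were called higher in brain for 5 of 9 genes, and Cacna1b had the widest difference. Cacna1b, the N-type pore of presynaptic terminals, had 237 (frozen) and 95.5 (FFPE) in brain against 39.4, 49.0 and 58.5 as the lowest, median and highest elsewhere. Both brain values were above all others but far from each other, and the difference was 1.62 ± 0.28 (adjusted p = 0.00147, limma), at 2.41 in the frozen and 0.84 in the FFPE libraries. Cacna1a, the P/Q-type pore of central synapses, had 227 and 206 in brain and 98.3 to 161 elsewhere, with a median of 123. Its brain difference of 0.77 ± 0.16 was smaller but without overlap. Cacna1e, the R-type pore, rose by 0.75 ± 0.19, Cacna1g, a T-type pore of thalamic neurons, by 0.92 ± 0.26, and Cacna1i, the T-type pore of the thalamic reticular nucleus, by 0.89 ± 0.24. For Cacna1i the groups overlapped, since frozen brain had 65.5 and FFPE liver 78.1. The brain calls of Cacna1e, Cacna1g and Cacna1i each held in 3 of the 8 fits with a library left out. That of Cacna1g was also lost without the filter on low values.

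The alpha1 genes without a brain call included the L-type pores. Cacna1d, the L-type pore of neurons, sinoatrial cells and inner hair cells, had 95.0 and 103 in brain and 44.9 to 92.0 elsewhere (0.56 ± 0.19, adjusted p = 0.0771), and Cacna1f, the retinal L-type pore, gave 0.94 ± 0.29 (adjusted p = 0.0542). Both brain libraries exceeded all others for these genes too. Cacna1s, the skeletal muscle L-type pore, gave 0.23 ± 0.26, and its brain values of 31.4 and 43.5 lay inside the range of the other libraries, 18.3 to 52.9.

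The remaining auxiliary subunits gave 1 brain call per subfamily. Cacna2d1, the alpha2delta subunit bound by gabapentin, rose by 0.89 ± 0.21, with 93.3 (frozen) and 97.2 (FFPE) in brain and 31.2 to 72.5 elsewhere. This call held in 4 of the 8 fits with a library left out. Cacna2d2 and Cacna2d3 had differences of 0.78 ± 0.27 and 0.80 ± 0.29 and Cacna2d4, known from retina, 0.47 ± 0.29; none of the 3 passed. Cacnb4, the beta subunit mutated in the lethargic mouse, had 174 and 149 in brain, and the others held 43.4, 76.4 and 92.4 as lowest, median and highest. It rose by 1.14 ± 0.20 (adjusted p = 0.00162, limma). Cacnb1, Cacnb2 and Cacnb3 gave 0.54 ± 0.25, 0.53 ± 0.21 and 0.63 ± 0.29. Cacnb1 and Cacna2d3 overlap the coding genes Rpl19 and Lrtm1, and their reads could not be separated.

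Calls over all genes are not set beside the counts from fits with a library left out. A change particular to the channel genes therefore cannot be read from those counts. The brain count depends on single libraries, and above all on frozen brain. It was 1 (Cacng2) without frozen brain, 7 without FFPE brain, 9 without FFPE heart, 8 without FFPE kidney and 25 without FFPE liver. With plain library totals it was 11, and the calls of Cacna1g, Cacna1i, Cacng3 and Scn1a were lost. The median member difference was 0.90 within the frozen libraries and 0.47 within the FFPE libraries, and 36 of 40 members had the same sign in both, where 64.5% of all tested genes did.

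Liver had the lowest H3K4m3 at several channel genes, with Cacnb2 in front. Against the mean of the other organs, 5 of 40 members (12.5%) were lower and 0 were higher in liver, beside 4.84% and 5.13% of all tested genes. Cacnb2, the calcium channel beta subunit of cardiac muscle, had 22.6 (frozen) and 16.2 (FFPE) in liver, and the other libraries held 36.9, 50.9 and 56.7 as lowest, median and highest. No other library came down to the liver values, and the gene fell by 1.35 ± 0.21 on the log2 scale (adjusted p = 0.00125, limma). Its call held in all 6 other settings and with each library left out in turn. The other 4 were Cacnb3 (-1.10 ± 0.29) and Cacna2d1 (-0.83 ± 0.21), whose 2 liver values lay below all others, and Scn3b (-1.15 ± 0.28) and Cacnb4 (-0.84 ± 0.20), whose values overlapped with other organs. The calls of Cacnb3 and Cacna2d1 were lost with plain library totals (3 left) and with precision weights, and that of Scn3b with precision weights (2 left). For 3 members in all both liver libraries were below the rest (background 4.44%). Liver was the lowest organ in both preservation types for 6 of 40 members, beside 10.7% of all tested genes.

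The calcium channel beta and alpha2delta subunits gave 4 of the 5 liver calls. Frozen and FFPE liver differed. Liver was the lowest organ for 29 frozen and 9 FFPE member values. These were 72.5% and 22.5% of the members, beside 29.6% and 27.6% of all tested genes. Among the FFPE libraries, heart was lowest for 17 members (42.5%, background 26.4%) and kidney for 12 (30%, background 19%). The median member difference in liver was -0.84 within the frozen and -0.11 within the FFPE libraries. The count was 1 (Cacnb2) without frozen liver and 20 without FFPE liver; leaving out frozen brain, heart or kidney gave 1, 2 and 3. Liver and brain calls share their libraries, since each organ is part of the other's reference: Cacnb4, Scn3b and Cacna2d1 were in both lists, with liver values of 43.4 to 76.4, 8.83 to 23.0 and 31.2 to 48.9 CPM. Hcn3 had 33.2 and 46.1 in liver and 28.5 to 50.1 elsewhere, a difference of 0.13 ± 0.23. The hepatocyte genes summed to 258 to 943 CPM in liver and 26.0 to 69.3 elsewhere, and their part in these differences was not tested.

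Heart gave no called member. In limma, 0 of 40 members were called against the mean of the other organs (background 1.72% higher, 0.853% lower), with 7 at an unadjusted p under 0.05; precision weights also gave 0. Cacng2 had the lowest p, at -1.14 ± 0.36 (adjusted p = 0.123), with the high brain values in its reference. Cacnb2 had 56.7 (frozen) and 47.6 (FFPE) in heart, highest among the frozen libraries and behind brain, at 49.6, among the FFPE libraries, and gave 0.57 ± 0.21 (adjusted p = 0.195). The cardiomyocyte genes summed to 1049 and 1312 CPM in heart and 385 to 889 elsewhere.

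With brain set aside, heart was compared with the mean of kidney and liver, and again 0 of 40 members were called (background 1.70% higher, 1.50% lower), with 4 at an unadjusted p under 0.05 and 0 with precision weights. Cacnb2 came nearest, at 0.84 ± 0.22 (adjusted p = 0.0555, limma), with 56.7 and 47.6 in heart, 53.0 and 36.9 in kidney, and the low liver values given above. Both heart libraries exceeded all kidney and liver libraries for 3 of 40 members, Cacng1, Cacng5 and Hcn4, a share near the 7.18% of all tested genes. Both lay below all of them for 2 of 40, beside 5.53%. For Hcn4, heart had 33.6 (frozen) and 36.9 (FFPE) and the others 16.0 to 30.7, a gap of 0.65 ± 0.28 that did not pass (adjusted p = 0.264). The heart count was 1 with quantile normalization, 1 with 2 reads added, 8 without FFPE liver and 1 without frozen liver.

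Kidney gave no called member either. In limma, 0 of 40 were called against the mean of the other organs (background 0.802% higher, 0.405% lower), with 5 at an unadjusted p under 0.05 and 0 with precision weights. Cacna1a had the lowest p, at -0.49 ± 0.16 (adjusted p = 0.21), with 127 (frozen) and 98.3 (FFPE) in kidney; 98.3 was the lowest of all 8 values, and 127 lay inside the range of heart and liver. Without frozen liver the count was 1 in kidney, lower, and 1 in heart, also lower.

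Most members called between the preservation types were pore-forming subunits. FFPE libraries were higher than frozen for 13 of 40 members (32.5%) and lower for 1 (2.5%), beside 16.5% and 21.3% of all tested genes. All genes together had a median FFPE minus frozen difference of 0.18, so a member at that value moved with the rest; the member median was 0.44. The called genes were 5 of 9 sodium channel alpha subunits, 8 of 9 calcium channel alpha1 subunits (7 higher and 1 lower) and Cacna2d4; no sodium channel beta, calcium channel beta, gamma or HCN gene was called.

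Scn4a and Scn10a, which had no organ call, showed the widest preservation differences. Scn4a had 33.9, 23.4, 30.0 and 13.1 CPM in frozen brain, heart, kidney and liver, and 39.5, 63.9, 53.0 and 61.5 in the FFPE libraries of the same organs. Every FFPE value lay above every frozen value, and the difference was 1.18 ± 0.27 (adjusted p = 0.00428, limma). Scn10a had 18.9, 20.0, 23.7 and 13.9 in the frozen and 33.3, 39.4, 36.2 and 68.3 in the FFPE libraries, again without overlap, at 1.17 ± 0.26. Scn11a (0.77 ± 0.22), Cacna1s (0.79 ± 0.23) and Scn7a (0.50 ± 0.20, adjusted p = 0.0628) were also without overlap. These 5 of 40 members are a share near the 13.1% of all tested genes. Of the skeletal muscle marker genes 2 of 5 were called higher in FFPE, beside 16.5% of all tested genes. So were 2 of 4 smooth muscle, 2 of 5 endothelial, 2 of 5 kidney tubule and 3 of 8 cardiomyocyte genes. Of the neuron genes 1 of 10 was, and of the hepatocyte genes 0 of 5. The skeletal muscle genes summed to 48.1 to 178 CPM in the frozen and 98.7 to 164 in the FFPE libraries. Acta1 of this list was called higher in brain. The part of these genes was not tested.

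For the other members called higher in FFPE at least 1 frozen value reached into the FFPE range. Cacna1i had 65.5, 43.7, 30.0 and 23.7 in frozen brain, heart, kidney and liver and 106, 55.9, 60.2 and 78.1 in FFPE, higher in all 4 organs. It had the lowest p of this comparison (0.94 ± 0.21, adjusted p = 0.00353, limma). Cacna2d4 (0.91 ± 0.25), Scn2a (0.74 ± 0.18), Cacna1f (0.73 ± 0.25), Scn8a (0.65 ± 0.16), Cacna1e (0.64 ± 0.17), Cacna1h (0.61 ± 0.23), Cacna1g (0.60 ± 0.22) and Cacna1d (0.46 ± 0.16) were higher in FFPE as well. Cacna1d, Cacna1h and Cacna2d4 overlap the coding genes Chdh and Dcp1a, Tpsg1, and Lrtm2, and their reads could not be separated. The calls of Scn2a, Scn4a, Scn8a, Scn10a, Cacna1e and Cacna1i held in all 6 other settings and with each library left out. Those of Cacna1g and Cacna1h were lost without the filter on low values and with precision weights, and that of Cacna1f with precision weights. Cacna1d, Cacna1g and Cacna1h kept theirs in 2 of the 8 fits with a library left out, Cacna1f and Scn11a in 4, Cacna1s in 5 and Cacna2d4 in 6. Without FFPE or without frozen liver, Cacna1g was at 0.25 and Cacna1h at 0.30.

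Cacna1a was the only member called lower in FFPE, and its direction rests on the scaling. It had 227, 159, 127 and 161 in frozen brain, heart, kidney and liver and 206, 107, 98.3 and 119 in FFPE, lower in every organ, at -0.38 ± 0.14 (adjusted p = 0.0416, limma). With quantile normalization the difference was 0.13 (adjusted p = 0.476), and with plain library totals the call was lost. With plain totals 5268 genes were called higher and 3929 lower over the whole table, in place of 4240 and 5477, and the median of all genes was 0.345; with quantile normalization that median was 0.02. Under these scalings 16 and 18 members were higher and 0 lower.

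**Figure D3:**
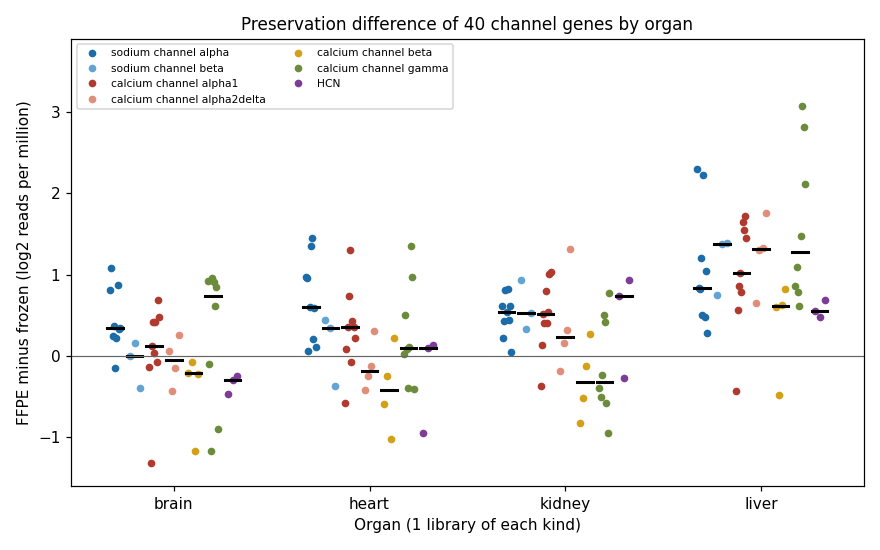
FFPE minus frozen for the 40 channel genes in each organ, in log2 H3K4m3 CPM; each point is 1 gene, coloured by subfamily, and bars are subfamily medians. Sodium channel alpha and calcium channel alpha1 medians lie above 0 in all 4 organs, and in liver 38 of 40 points do.

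The preservation difference was not of 1 size in the 4 organs. The member median was 0.09 in brain, 0.17 in heart, 0.41 in kidney and 0.86 in liver, and 23, 28, 29 and 38 members were higher in FFPE. Over all tested genes the medians were 0.03, 0.05, 0.06 and 0.13. With 1 library of each kind per organ, the differences between organs have no replicate check. The count of called members was 12 without FFPE liver, 13 without frozen liver, 9 without FFPE or without frozen heart, and 7 without FFPE or without frozen kidney.

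Promoter sequence was set beside the preservation difference as a description. A window was taken as CpG-rich where its GC share was over 50% and its CpG count over 0.6 of that expected from its bases; 18 of the 40 member windows (45%) were, beside 33.3% of all RefSeq promoters. A gene was counted by its richest window, which made 17 of 31 members CpG-rich, beside 8732 of 18321 tested genes with a window. All 4 calcium channel beta, all 3 matched alpha2delta and both matched HCN genes were CpG-rich, although each beta gene also had a CpG-poor window. Among 8 matched sodium channel alpha genes only Scn8a was CpG-rich, and the matched alpha1, gamma and sodium beta genes were evenly divided, 3 and 3, 3 and 3, and 1 and 1. CpG-poor members had a median FFPE minus frozen difference of 0.69 and CpG-rich members one of 0.27. The same order held over all tested genes with a window, at 0.56 for 9589 CpG-poor and -0.34 for 8732 CpG-rich genes. The difference was above 0 for 92.9% of CpG-poor and 70.6% of CpG-rich members, beside 76.4% and 29.1% of those genes. Of the members, 7 of 14 CpG-poor and 3 of 17 CpG-rich ones were called higher in FFPE. Over all tested genes 16.5% were, and their share by promoter class was not worked out.

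Across the 31 genes, the CpG ratio and the preservation difference had a Spearman rho of -0.49 (Pearson r -0.44), and across 18321 genes rho was -0.56. Genes share all 8 libraries and are not independent replicates, so these are descriptions. Gene span showed no such order (rho -0.11 over 40 members). Of the genes printed above, Scn4a, with 4 CpG, differed by 1.18, and Cacnb2, with 35, by -0.33 ± 0.18 (adjusted p = 0.156). Single genes departed from this order: Cacna1d had the highest CpG ratio of the 31, at 1.18, and was called higher in FFPE, and Cacng8 had the lowest, at 0.11, and differed by 0.39 without a call. CpG content showed little order with the brain difference: rho was 0.11, and 6 of 12 members called in brain were CpG-rich, as were 11 of 19 not called.

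**Figure D4:**
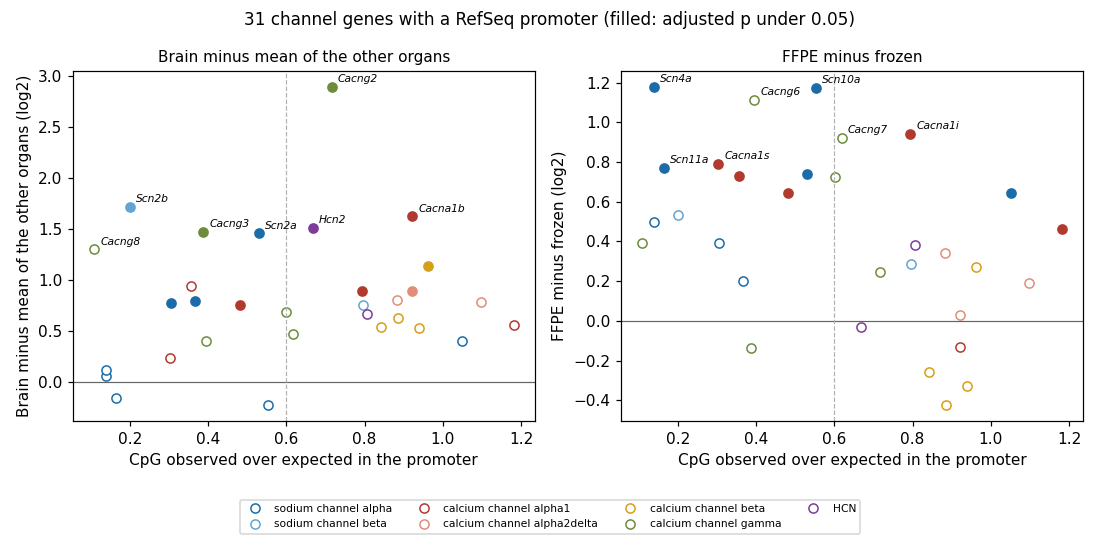
CpG observed over expected in the promoter window of 31 channel genes (x) against the brain difference (left) and the FFPE minus frozen difference (right), in log2 H3K4m3 CPM; filled points have an adjusted p under 0.05 and the dashed line is 0.6. On the right the CpG-poor genes lie higher (median 0.69) than the CpG-rich genes (median 0.27); on the left Scn2b and Cacng2 are both high with low and high CpG content.

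Searches of the 40 windows of these 31 genes, on both strands, found few matches to fixed letters. CAGCACC, the left arm of the RE1 element bound by the repressor REST, matched in 0 windows (7.14% of all promoters), and GGACAGC, the right arm, in 2, at Cacnb1 and Cacng6 (6.56%). TATAAA matched in 2 windows, at Cacna1d and Scn2a (13.6%). A missing match says only that these letters are not in the window.

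Channel partner genes, 37 genes of a fixed list that anchor, modulate or work beside these channels, were also higher in brain in many cases. There 19 (51.4%) were higher and 2 (5.41%) lower, beside 5.53% and 4.53% of all tested genes, so that the lower share stood near the background. The median was 0.83. Fgf14, an intracellular binding partner of sodium channels, rose by 3.04 ± 0.27, the junctophilins Jph3 and Jph4, which tie the plasma membrane to calcium stores, by 2.81 ± 0.47 and 2.50 ± 0.24, and the active zone proteins Rims1 and Rims2, which bind presynaptic calcium channels, by 1.71 ± 0.25 and 1.65 ± 0.20. Nfasc, which holds sodium channels at the axon initial segment, rose by 1.61 ± 0.22. The 2 lower genes were Rem1 (-1.83 ± 0.29) and Rrad (-1.10 ± 0.27), small GTPases that inhibit calcium channels.

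In heart, where no channel gene was called, 3 partners (8.11%) were higher, beside 1.72% of all genes. Jph2, the junctophilin of cardiac dyads, rose by 1.99 ± 0.30, Rrad by 1.66 ± 0.27 and Rem1 by 1.42 ± 0.29. In liver 10 partners (27.0%) were lower and 0 higher, beside 4.84% and 5.13% of all genes. Ryr2, Nalcn and Jph4 were at -0.99 ± 0.19, -0.77 ± 0.19 and -1.23 ± 0.24. All 10 except Rrad were also called higher in brain, and Rrad was called higher in heart. Brain and heart are part of the liver reference, so their high values enter these differences. Kidney gave 1 lower partner (2.70%, background 0.405%), Fgf14 (-1.46 ± 0.27), with the high brain value of this gene in its reference. Heart against kidney and liver gave 2 higher (5.41%, background 1.70%), Jph2 and Rrad. FFPE against frozen gave 7 higher (18.9%), near the 16.5% of all genes, and 2 lower (5.41%), beside 21.3%. Ryr1 and Stac3, of the skeletal muscle release machinery, were among the higher at 1.01 ± 0.15 and 1.38 ± 0.31, and Calm2 and Jph1 were the lower.

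In all, 26 of 40 members were called in at least 1 comparison and 14 in none. The share of all tested genes called in at least 1 comparison was not worked out. FFPE against frozen alone called 16.5% of all tested genes higher and 21.3% lower. The 14 were the sodium channel genes Scn3a, Scn7a and Scn4b, the calcium channel genes Cacna2d2, Cacna2d3, Cacnb1, Cacng1, Cacng4, Cacng5, Cacng6, Cacng7 and Cacng8, and Hcn3 and Hcn4. Of these, Cacng4, Cacng6 and Cacng7 had under 10 reads in at least 1 library, and the SE of their brain differences was 0.47, 0.64 and 0.64, wider than that of Cacng2 (0.36).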

How the data were processed

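H3K4m3 chromatin immunoprecipitation sequencing of 4 mouse organs was analysed in 8 libraries, 1 frozen and 1 FFPE per organ. The authors deposited 1 table of normalized log2 values per gene; the submitters' processing notes name Bowtie2, featureCounts, limma and the build mm10 (GRCm38), and no step order or settings are given in the sources used here. The values had the form of log2 CPM on a scaled library size with 0.5 read added, and whole reads were recovered for 100% of them (tolerance 0.001), which gave the depths. Groups and columns were taken from the labels, and no column was left unmapped.

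Genes with a mean log2 value of at least 0 were tested with limma 3.58.1 in R 4.3.3 (organ and preservation as terms, 3 residual degrees of freedom, intensity trend), with Benjamini-Hochberg adjustment over all 25680 genes; the fit was tested on simulated data. Named members were every called one, at most 12 of lowest p per direction, plus for each subfamily the member of lowest p and those with the highest and lowest brain value; members named beyond these were chosen after their values were seen. Members and lists were chosen with earlier results of these data known. Alternatives were quantile normalization, plain library totals, no filter, a mean log2 of at least 1, 2 reads added, precision weights and leaving out each library. Some genes that fit the symbol rule or a list are not reported here. All 40 members matched a RefSeq gene by its identifier, and 31 had a RefSeq promoter.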

Additional observations from a re-analysis of the deposited data

Results flagged for a closer look

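The member median in heart took opposite signs in the 2 preservation types. Against the mean of the other organs it was 0.10 in the frozen and -0.25 in the FFPE libraries, and against the mean of kidney and liver 0.39 in the frozen and -0.05201 in the FFPE libraries. Among the members called in FFPE against frozen, Cacna1g in heart (-0.07975) and Cacna1h in brain (-0.07478) had the opposite sign to the other 3 organs. Members without that call held wider ones, such as Cacna1b in brain (-1.31) and Cacng7 in kidney (-0.95). None of these differences was tested, since each organ and preservation type has 1 library, and no group had the 4 samples that a check for single distant libraries needs.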

How the results depend on the processing

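No paired analysis was possible because the columns of the table carry no replicate numbers; organ is a term of the reported model, so FFPE and frozen are already compared within organs. In the 6 settings other than leaving out a library, the counts of called members in brain, kidney, heart against the other organs, and FFPE against frozen stayed within 1.5 times the reported ones; in liver plain library totals gave 3 and precision weights 2, and in heart against kidney and liver quantile normalization gave 1 and 2 added reads gave 1. Leaving out each library in turn gave 1 to 25 in brain, 0 to 1 in heart, 0 to 1 in kidney, 1 to 20 in liver, 0 to 8 in heart against kidney and liver, and 7 to 13 in FFPE against frozen; the library left alone in an organ is then assumed to vary like the other organs. Calls over all genes are not set beside these leave-out counts, so a change particular to the channel genes cannot be read from them. The preservation difference of Cacna1a reversed to 0.13 with quantile normalization, and the cause was not tested. Plain totals changed the split over all genes in heart against kidney and liver from 436 higher and 386 lower to 187 and 270. Depth limits Cacng3, Cacng4, Cacng6 and Cacng7, with under 10 reads in at least 1 library.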
